A study of Homo sapiens with 9 samples.

Results

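SW1783, a human astrocytoma line, was treated for 24 h with a 70% ethanol extract of Poria Cocos or of Atractylodis Rhizoma, and the extracts are compared here with each other at matched doses. The 6 treated libraries of 9 in the series were used: Poria at 20, 100 and 500 µg/mL and Atractylodis at the same 3 doses, with 1 library per extract and dose. Treatment labels chose the libraries, and each Poria library was set against the Atractylodis library of its dose. The other 3 libraries were vehicle cultures (DMSO), whose levels are printed beside the extracts but entered no test of one extract against the other. The labels give the vehicle as 0.1% DMSO and the series design gives 2%, which could not be settled, and no DMSO percentage is given for the treated cultures. All treated libraries carry the number of replicate 2, and all come from 1 cell line. No dose of either extract is repeated among them, and whether other replicates exist is not known from the labels. The labels do not say that libraries came from separate cultures, so the p-values below reflect only the variation among these libraries, part or all of which may be technical.

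Poria Cocos is a fungus rich in triterpenes and polysaccharides, and Atractylodis Rhizoma is a plant rhizome rich in volatile sesquiterpenes and polyacetylenes; both are tonifying herbal medicines. Complex extracts of this kind can reach several stress and chemical sensors of a cell. Metallothionein genes are switched on by zinc through the factor MTF1, chaperone genes of the endoplasmic reticulum by unfolded proteins through ATF6 and XBP1, amino acid synthesis genes by ATF4, and detoxification genes by the aryl hydrocarbon receptor when a ligand enters the cell. In cells of glial origin these programmes are readouts of metal load, secretory load, amino acid supply and exposure to foreign compounds.

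The libraries held 42499213 to 48905536 rounded counts in the 6 treated cultures and 40269665 to 43805624 in vehicle. At this depth 3 counts correspond to between 0.0607 and 0.0712 CPM (counts scaled to a common library size with TMM) in a treated library. Counting error weighs on genes of few CPM, and for abundant genes the lack of repeated cultures limits precision. Libraries did not stand equally far apart: chi-square per gene between the Poria and Atractylodis libraries was 11.24 at 20 µg/mL, 7.79 at 100 µg/mL and 17.16 at 500 µg/mL, against 2.46 to 3.44 for pairs of vehicle cultures. Every treated library, also at 20 µg/mL, stood 13.98 to 31.41 from each vehicle library. The cause of that gap was not tested, so levels set beside vehicle are a description only. The library of Poria at 20 µg/mL was closer to Atractylodis at 100 µg/mL, with 3.47, than to Atractylodis at its own dose. At 20 µg/mL the log2 ratio of Poria over Atractylodis also followed gene GC content (Spearman rho of -0.428 over 11582 genes), whereas rho was 0.058 at 100 µg/mL and 0.01 at 500 µg/mL. Results are therefore also given without libraries of the lowest dose. The share of counts from mitochondrial genes was 6.971%, 5.384% and 5.84% with rising dose of Poria and 5.622%, 6.635% and 5.653% with rising dose of Atractylodis. As a check of the cell label, the astrocyte genes GJA1 (209 to 235 CPM with Poria, 232 to 249 CPM with Atractylodis), SOX9 (58.6 to 70.1 CPM and 65.8 to 74.7 CPM in the same order) and the glutamate transporter gene SLC1A3 (25.1 to 26.3 CPM and 25 to 27.1 CPM) were expressed. GFAP, with 26 counts over the 6 libraries, S100B with 16, ALDH1L1 with 8 and AQP4 with 6 were too low to test, so these defining astrocyte markers were almost absent from the line.

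The first comparison asked which genes were set apart by the extracts whatever the dose. It used the mean of the 3 log2 ratios of Poria over Atractylodis, with the dose as a block. By the edgeR quasi-likelihood test with Benjamini-Hochberg adjustment at 0.05, 8 of 17525 genes tested passed (0.0456%), 4 higher with Poria (0.0228%) and 4 lower with Poria (0.0228%). The error of this test is the variation of the ratio between doses, combined for each gene with a spread shared over genes. For most genes the shared spread weighed more (median 16.7 prior degrees of freedom, against 2 residual). A difference that grows with dose counts as error. A low count is therefore not evidence that the extracts differed in few genes, and it depended strongly on how the spread was taken, as given further below. At an unadjusted p under 0.05 there were 1718 genes. In 2709 genes Poria was above Atractylodis at all 3 doses, and in 2835 genes it was below. Among the genes called, the pair with a known function in common were the metallothionein genes MT1X and MT1E, both lower with Poria.

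Metallothioneins are small cysteine-rich proteins that bind zinc and copper. MT1X (ENSG00000187193, GRCh38 chr16:56682424-56684196, plus strand) had 17.6, 14 and 11 CPM with Poria at 20, 100 and 500 µg/mL, against 23, 18.1 and 16.6 CPM with Atractylodis and 19.2 ± 1.26 CPM in vehicle (SD, n = 3). MT1E (ENSG00000169715, GRCh38 chr16:56625475-56627112, plus strand) had 21.9, 16 and 9.54 CPM with Poria, against 27.1, 21.7 and 15.5 CPM with Atractylodis and 24.4 ± 2.51 CPM in vehicle. At every dose the Poria library was the lower one, and the ranges of the extracts overlapped because the levels of both were lower at each higher dose. The mean log2 ratio was -0.45 ± 0.07 for MT1X (SE, 6 libraries, adjusted p = 0.012) and -0.47 ± 0.07 for MT1E (adjusted p = 0.016). These genes are close paralogs that share reads, so the split between them is uncertain, but their summed level showed the same order at each dose: 39.5, 30 and 20.5 CPM with Poria, against 50.1, 39.8 and 32.1 CPM with Atractylodis. Without the pair at 20 µg/mL or the pair at 500 µg/mL both kept their call, and without the pair at 100 µg/mL both lost it (log2 -0.49 for each, adjusted p = 0.15 and 0.22). Both calls also ended in DESeq2 (adjusted p = 0.092 and 0.053), without robust estimation (0.14 and 0.17), without the dose block (0.7 and 0.83) and with offsets for GC content and length (0.077 and 0.088).

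The other metallothionein and zinc genes had ratios on the same side of 0. Of 8 genes on this list 5 were tested, 2 of them called lower and 0 higher, all 5 had a negative ratio, and their median log2 ratio was -0.45, against 0 over all genes tested. The median was -0.32, -0.37 and -0.43 with rising dose. MT2A, a metallothionein gene of the same cluster, had 386, 327 and 313 CPM with Poria, against 480, 370 and 333 CPM with Atractylodis and 471 ± 43.7 CPM in vehicle (log2 -0.19 ± 0.05, adjusted p = 0.22). MT1F had 0.522, 0.498 and 0.398 CPM with Poria, against 1.08, 0.981 and 0.552 CPM with Atractylodis (log2 -0.85 ± 0.25, adjusted p = 0.3). SLC30A1, which exports zinc from the cell, had 75.2, 71.7 and 70.4 CPM with Poria, against 78.9, 81.6 and 79.3 CPM with Atractylodis (log2 -0.14, adjusted p = 0.34). None of these 3 passed the test, although at each dose the Poria library was the lower one. MT1G (28 counts), MT1M (19 counts) and MT1H (0 counts) were too low to test.

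The promoters of MT1X and MT2A are shown because MTF1 binds metal response elements. Of 4 metallothionein genes looked up, MT1X, MT1E, MT2A and MT1F, these 2 had an entry in the RefSeq promoter table (GRCh38.p14, 250 bases before the start site to 50 bases after it). Capitals mark each TGCACNC or TGCGCNC, the core of that element, on either strand. MT1X, at chr16:56682220-56682519, plus strand, held 4 and MT2A, at chr16:56608334-56608633, plus strand, held 8. At least 1 match was found in 29.6% of 35116 promoters and at least 4 in 0.601%.
MT1X: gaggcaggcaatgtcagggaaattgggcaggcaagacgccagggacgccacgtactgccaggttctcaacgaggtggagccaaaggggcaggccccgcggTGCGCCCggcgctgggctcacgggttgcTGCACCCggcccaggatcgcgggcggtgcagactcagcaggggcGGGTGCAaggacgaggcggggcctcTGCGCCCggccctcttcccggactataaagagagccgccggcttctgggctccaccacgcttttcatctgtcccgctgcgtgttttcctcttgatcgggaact
MT2A: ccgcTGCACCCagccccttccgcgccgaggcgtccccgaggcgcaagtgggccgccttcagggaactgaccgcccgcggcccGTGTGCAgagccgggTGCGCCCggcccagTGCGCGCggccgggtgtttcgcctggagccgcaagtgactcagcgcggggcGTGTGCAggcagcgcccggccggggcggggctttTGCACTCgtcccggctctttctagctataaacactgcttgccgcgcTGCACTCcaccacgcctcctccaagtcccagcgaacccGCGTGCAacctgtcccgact
A match is a run of letters and not evidence that MTF1 was bound in these cells.

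**Figure D1:**
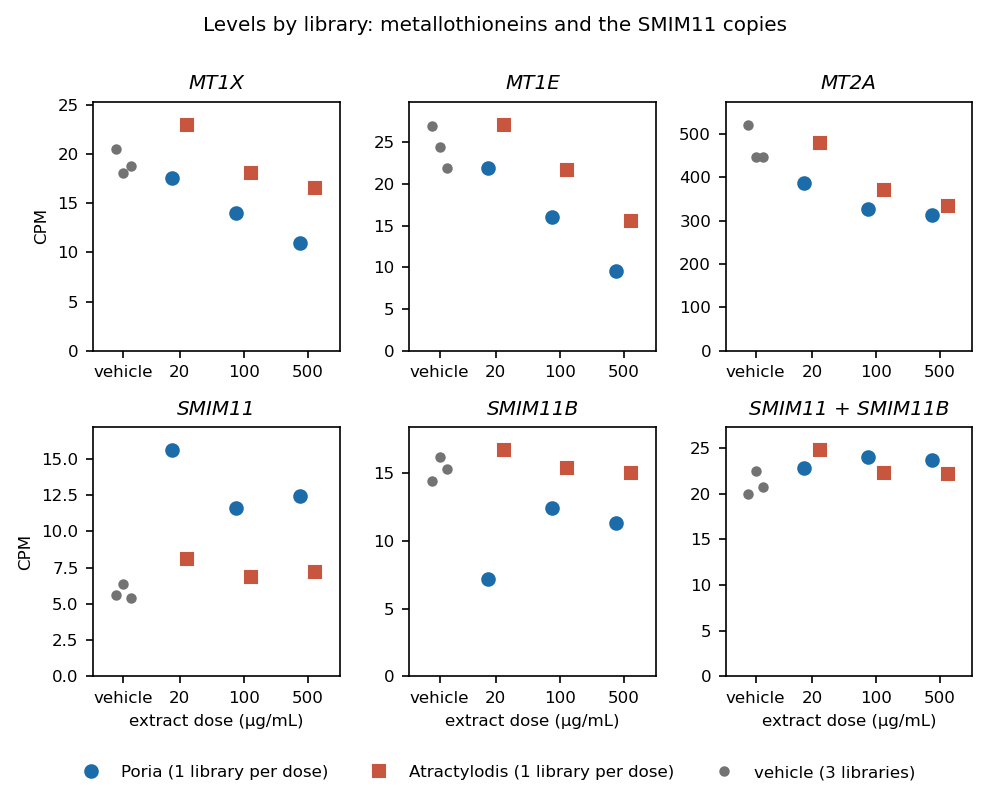
CPM in each library (linear axes) of MT1X, MT1E, MT2A, SMIM11, SMIM11B and the sum of both SMIM11 copies, by dose for Poria (blue circles) and Atractylodis (red squares), 1 library each, with the 3 vehicle libraries in grey at the left as the zero dose. The metallothionein points of Poria lie below those of Atractylodis at every dose, whereas the SMIM11 copies lie in opposite orders and their sum (22.8 to 24 CPM with Poria, 22.2 to 24.8 CPM with Atractylodis) does not separate the extracts.

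The remaining calls were genes with near-identical copies, genes that overlap another gene, pseudogenes or genes with little known function. SMIM11 (GRCh38 chr21:34375480-34407866, plus strand), which encodes a small membrane protein, had 15.6, 11.6 and 12.4 CPM with Poria, against 8.1, 6.87 and 7.22 CPM with Atractylodis (log2 0.83 ± 0.08, adjusted p = 2.6e-05). All Poria libraries were above all Atractylodis libraries, an order found in 6.49% of genes tested. Its near-identical copy SMIM11B stood the other way, with 7.17, 12.4 and 11.3 CPM with Poria and 16.7, 15.4 and 15 CPM with Atractylodis. The sum of the copies was 22.8, 24 and 23.7 CPM with Poria, against 24.8, 22.3 and 22.2 CPM with Atractylodis, so the ranges of the extracts overlapped for the sum. RPL21P75, a ribosomal protein pseudogene whose parent gene shares its sequence, had 2.86, 2.17 and 1.99 CPM with Poria, against 0.449, 0.28 and 0.23 CPM with Atractylodis and 1.58 ± 0.655 CPM in vehicle (log2 2.87 ± 0.21, adjusted p = 9e-07). AL136295.1 had 0.34, 0.34 and 0.538 CPM with Poria and 0 counts in all Atractylodis libraries (adjusted p = 0.0029). AC092143.1 had 0 counts in all Poria libraries and 0.179, 0.467 and 0.322 CPM with Atractylodis (adjusted p = 0.009). Each passed the count filter only through the extract in which it was found, so neither p-value is support for a difference. AC092143.1 kept its call in 1 of the 3 fits that left out a pair and was not tested in the others. On the same strand it overlaps the tubulin gene TUBB3 (104 to 121 CPM in treated libraries), so its reads may be shared. AC068533.4 was higher with Poria (log2 1.54 ± 0.26, adjusted p = 0.047) and AC008264.2 lower with Poria (-1.73 ± 0.29, adjusted p = 0.033), and both lost their call without the pair at 100 µg/mL (adjusted p = 0.32 and 0.38).

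Below the threshold, the genes with the smallest p in each direction are given as values. On the side of higher ratios stood RAB3B, a GTPase gene of vesicle release, with 60.1, 62 and 69 CPM with Poria, against 51.3, 52.4 and 46.3 CPM with Atractylodis (log2 0.35 ± 0.07, adjusted p = 0.13). BIRC3, an NF-kB target that restrains cell death, had 12.2, 12.7 and 14.1 CPM with Poria, against 10.3, 10.2 and 8.44 CPM with Atractylodis (0.44 ± 0.09, adjusted p = 0.14). HAS2, a hyaluronan synthase gene, had 59.6, 68.7 and 65.9 CPM with Poria and 54.5, 57.8 and 53.7 CPM with Atractylodis. In all 3 genes every Poria library was above every Atractylodis library, an order found in 6.49% of genes tested. CCN2, a matrix protein gene under TGF-beta and YAP control, had 121, 120 and 120 CPM with Poria, against 105, 108 and 100 CPM with Atractylodis and 201 ± 6.56 CPM in vehicle (log2 0.2 ± 0.05, adjusted p = 0.14). On the side of lower ratios, CDK2AP2, an inhibitor of a cell cycle kinase, had 54.4, 49.4 and 43 CPM with Poria, against 63.3, 58 and 58 CPM with Atractylodis (-0.29 ± 0.05, adjusted p = 0.052). CTSD, the lysosomal protease cathepsin D, had 257, 247 and 233 CPM with Poria and 300, 272 and 307 CPM with Atractylodis (-0.25, adjusted p = 0.11). For both, every Poria library was below every Atractylodis library, an order found in 6.46% of genes tested.

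The second comparison asked whether the difference between the extracts changed with dose. Each gene's log2 ratio of Poria over Atractylodis was tested for a change per 5-fold dose step, from 20 to 100 to 500 µg/mL. The model is a straight line over the steps, so a difference confined to 1 dose counts partly as error. A gene or list without a call is therefore not shown to be alike between the extracts. By edgeR's quasi-likelihood test with Benjamini-Hochberg adjustment the ratio rose per step in 83 genes (0.474%) and fell in 74 genes (0.422%), together 157 (0.896% of 17525). None of these was among the 8 genes of the first comparison. With unadjusted p under 0.05 there were 2070 genes. Library totals in place of TMM turned the split into 91 rising and 51 falling ratios. The ratio was widest at the top dose: over the genes called, the median absolute log2 ratio was 0.11 at 20 µg/mL, 0.14 at 100 µg/mL and 0.48 at 500 µg/mL. In 105 of 157 the absolute ratio at 20 µg/mL was under 0.2, and in 131 the ratios at 100 and 500 µg/mL had the same sign. These medians describe genes chosen by the same ratios and are no further test. Across 11609 genes, the ratios at 100 and 500 µg/mL had a Spearman rho of 0.337, those at 20 and 500 µg/mL 0.167, and those at 20 and 100 µg/mL 0.032. These correlations are across genes, which are not independent, and the dose pairs share no library.

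Of the 157 genes, 33 were among the 673 list members tested (4.9%, beside 0.896% of all genes), 18 with a rising and 15 with a falling ratio. The lists were chosen with earlier results of these data known, so nothing is read from that share. Over all genes tested, 8817 changes per step were above 0 and 8708 below. Members of a list are not independent of each other, so counts of signs within a list are a description only. Falling ratios were called in 5 of 20 endoplasmic reticulum genes and 5 of 22 ATF4 genes, and rising ones in 5 of 9 targets of the aryl hydrocarbon receptor and 3 of 22 inflammatory genes. Members that passed this test are named below even where the rule for named genes does not cover them, a choice made after their values were seen. Every call rests on few libraries: without Poria at 500 µg/mL 16 of the 157 were called, without Atractylodis at 500 µg/mL 24, without Poria at 20 µg/mL 39 and without Atractylodis at 20 µg/mL 49. Without a library of the middle dose 151 and 153 were called. All 157 kept the sign of their change in each of these 6 fits, and 4 kept their call in all of them: MT-ATP8, CDRT4, TVP23C-CDRT4 and RPS10-NUDT3. The 157 were chosen by these same ratios, which all ran in dose order, so the kept signs are no further test.

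**Figure D2:**
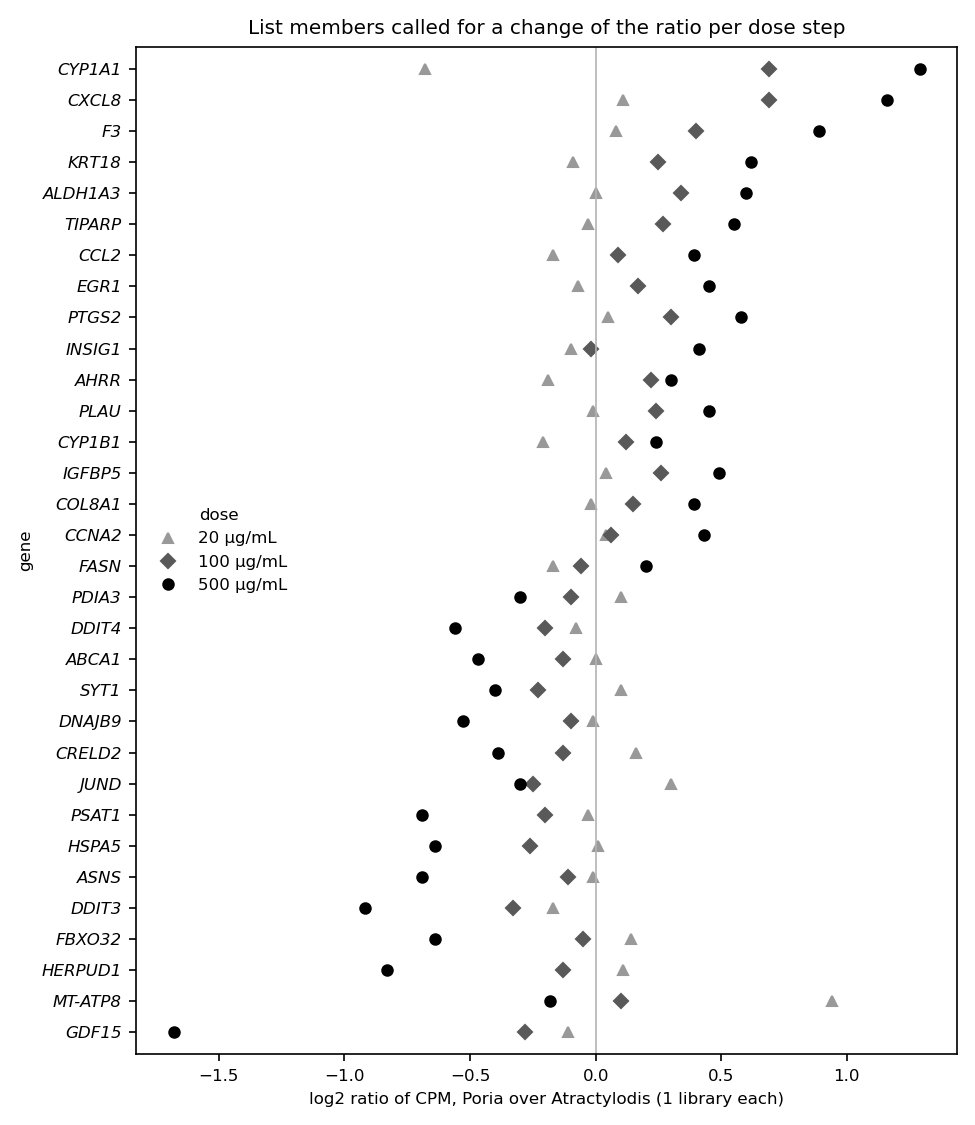
Log2 ratio of CPM, Poria over Atractylodis, of 32 of the 33 list members called for a change of the ratio per dose step, 1 line of points per gene, sorted by that change. Triangles are 20 µg/mL, diamonds 100 µg/mL and circles 500 µg/mL, 1 library of each extract per point, and 28 of the 32 triangles lie within 0.2 of 0 while the circles lie farthest out for most genes.

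In 5 of 20 genes of the endoplasmic reticulum the ratio of Poria over Atractylodis fell per step, and these were lower with Poria at the top dose. HSPA5 (ENSG00000044574, GRCh38 chr9:125234853-125241330, minus strand), the chaperone BiP that holds the stress sensors inactive, had 3610, 3170 and 2490 CPM with Poria at 20, 100 and 500 µg/mL, against 3570, 3780 and 3870 CPM with Atractylodis and 3490 ± 113 CPM in vehicle. The libraries at 20 µg/mL were alike, and at 500 µg/mL Poria was below vehicle (log2 -0.49) while Atractylodis was above it (0.15). Its ratio fell by 0.33 ± 0.05 per step on the log2 scale (SE, 6 libraries, adjusted p = 0.00051). HERPUD1, which takes part in the degradation of misfolded proteins, had 96.4, 87.6 and 61.1 CPM with Poria, against 89.2, 95.6 and 109 CPM with Atractylodis and 128 ± 3.51 CPM in vehicle (-0.47 ± 0.06 per step, adjusted p = 0.00028). Both extracts were below vehicle for this gene, and the Poria library at 500 µg/mL was the lowest. CRELD2, a disulfide isomerase gene of the same compartment, had 64, 58.8 and 53.2 CPM with Poria and 57.2, 64.3 and 69.6 CPM with Atractylodis (-0.27 ± 0.05 per step, adjusted p = 0.0019). DNAJB9, a co-chaperone of BiP, had 34.2, 34.5 and 31.3 CPM with Poria, against 34.6, 36.9 and 45.2 CPM with Atractylodis (-0.26 ± 0.06, adjusted p = 0.017). The ratio of PDIA3, a disulfide isomerase gene, fell as well, with 794, 740 and 665 CPM with Poria and 740, 793 and 820 CPM with Atractylodis (-0.2 ± 0.05, adjusted p = 0.026).

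Over the whole list of endoplasmic reticulum chaperones and degradation, 5 of 20 genes had a falling ratio and 0 a rising one, 19 of 20 changes were below 0, and the median change was -0.15 per step, against 0 over all genes tested. Median log2 ratios were -0.01, -0.13 and -0.32 with rising dose. The summed level of the list was 13100, 12100 and 10500 CPM with Poria, against 13200, 13600 and 14100 CPM with Atractylodis and 13200 to 13500 CPM in vehicle. HSP90B1, the chaperone GRP94, had 1550, 1460 and 1270 CPM with Poria and 1530, 1610 and 1640 CPM with Atractylodis (adjusted p = 0.053), and the calcium-binding chaperone gene CALR had 1630, 1500 and 1330 CPM with Poria and 1750, 1760 and 1850 CPM with Atractylodis (adjusted p = 0.063). Both missed the threshold. Without the Atractylodis library at 20 µg/mL, HSPA5, HERPUD1, CRELD2 and PDIA3 lost their call and DNAJB9 kept it (HSPA5 log2 -0.3, adjusted p = 0.12), and without Poria at 20 µg/mL all but HERPUD1 lost it. Without either library of 500 µg/mL all 5 lost it (HSPA5 -0.25 without Poria, adjusted p = 0.79). In the mean over doses 0 of the 20 genes passed, all 20 ratios were below 0, and the median was -0.16.

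The promoters of HSPA5 and CRELD2 are shown because ATF6 and its partner NF-Y bind the endoplasmic reticulum stress element. Capitals mark CCAAT followed after 9 bases by CCACG, on either strand, which 0.0769% of the 35116 RefSeq promoters held. HSPA5 is at chr9:125241294-125241593, minus strand, and CRELD2 at chr22:49918384-49918683, plus strand (GRCh38.p14). Of 7 list members looked up, 6 had an entry and 3 held this exact run, while HERPUD1 and DNAJB9 did not hold it in this window. Other spacings or forms of the element were not searched, so its absence from a promoter is not shown.
HSPA5: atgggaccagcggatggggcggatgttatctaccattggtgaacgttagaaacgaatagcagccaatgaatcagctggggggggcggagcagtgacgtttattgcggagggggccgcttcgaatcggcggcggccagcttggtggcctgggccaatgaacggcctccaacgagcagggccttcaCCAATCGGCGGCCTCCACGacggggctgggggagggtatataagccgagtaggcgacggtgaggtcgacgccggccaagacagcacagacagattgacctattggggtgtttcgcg
CRELD2: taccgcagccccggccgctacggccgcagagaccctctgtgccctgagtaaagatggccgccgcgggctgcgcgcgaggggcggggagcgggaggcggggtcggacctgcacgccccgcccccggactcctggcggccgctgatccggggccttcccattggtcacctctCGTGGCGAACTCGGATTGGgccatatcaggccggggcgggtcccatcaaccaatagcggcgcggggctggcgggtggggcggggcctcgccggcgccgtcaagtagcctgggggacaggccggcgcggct
Binding of a factor at these letters was not measured.

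In the ATF4 programme, which supplies amino acids under stress, the ratio of Poria over Atractylodis fell in 5 of 22 genes, each of them highest in the top dose of Atractylodis among treated libraries. PSAT1, an enzyme of serine synthesis, had 71.7, 66.8 and 58.2 CPM with Poria, against 73.3, 76.5 and 93.7 CPM with Atractylodis and 71 ± 2.8 CPM in vehicle (-0.33 ± 0.05 per step, adjusted p = 0.00025). ASNS (ENSG00000070669, GRCh38 chr7:97852118-97872542, minus strand), which makes asparagine, had 60.3, 59.9 and 53.1 CPM with Poria, against 60.8, 64.6 and 85.5 CPM with Atractylodis and 59.1 ± 1.16 CPM in vehicle (-0.34 ± 0.06, adjusted p = 0.0012). For both genes the highest of all 9 libraries was Atractylodis at 500 µg/mL. GDF15, a secreted stress hormone, had 4.06, 3.87 and 2.95 CPM with Poria, against 4.4, 4.72 and 9.54 CPM with Atractylodis and 4.32 ± 0.55 CPM in vehicle (-0.81 ± 0.15, adjusted p = 0.011). DDIT3, which encodes the stress factor CHOP, had 27.1, 22.2 and 19 CPM with Poria, against 30.5, 27.8 and 36.1 CPM with Atractylodis (-0.38 ± 0.08, adjusted p = 0.027). DDIT4, an inhibitor of mTORC1, had 64, 65.3 and 61.1 CPM with Poria, against 67.7, 75.1 and 89.9 CPM with Atractylodis and 56 ± 3.1 CPM in vehicle (-0.24 ± 0.05, adjusted p = 0.0089).

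ATF4 itself had 117, 113 and 102 CPM with Poria, against 125, 118 and 141 CPM with Atractylodis, and did not pass (adjusted p = 0.1). Over the list 19 of 22 changes were below 0 with a median of -0.18 per step, and 0 ratios rose. Median log2 ratios were -0.08, -0.07 and -0.39 with rising dose. PSAT1, ASNS, GDF15, DDIT4 and DDIT3 kept their calls without the Atractylodis library at 20 µg/mL, and all 5 lost them without the one at 500 µg/mL (ASNS log2 -0.18, adjusted p = 0.32). GDF15, DDIT4 and DDIT3 also lost theirs without Poria at 20 µg/mL, and all of the 5 but DDIT3 without Poria at 500 µg/mL. The promoter of ASNS is shown because ATF4 is known to bind an amino acid response element with the core TGATGNAA in this gene, a run that capitals mark here and that 3.62% of promoters held on either strand (chr7:97872359-97872658, minus strand, GRCh38.p14, the first of 2 entries).
ASNS: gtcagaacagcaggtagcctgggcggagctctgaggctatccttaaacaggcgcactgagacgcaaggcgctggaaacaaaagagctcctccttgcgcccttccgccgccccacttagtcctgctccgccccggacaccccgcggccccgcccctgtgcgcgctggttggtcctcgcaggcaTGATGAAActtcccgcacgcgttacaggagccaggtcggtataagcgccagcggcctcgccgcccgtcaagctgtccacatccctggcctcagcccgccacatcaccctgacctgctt
PSAT1, GDF15, DDIT3 and DDIT4 held no such run in this window, and the second ASNS entry held none.

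Among targets of the aryl hydrocarbon receptor the ratio rose in 5 of 9 genes tested and fell in 0, and these 5 were higher with Poria than with Atractylodis at 100 and 500 µg/mL. ALDH1A3 (ENSG00000184254, GRCh38 chr15:100877714-100916626, plus strand), which makes retinoic acid, had 820, 970 and 1240 CPM with Poria at 20, 100 and 500 µg/mL, against 821, 763 and 817 CPM with Atractylodis and 701 ± 4.03 CPM in vehicle. Equal at 20 µg/mL, the extracts were apart at the higher doses, and the ratio rose by 0.3 ± 0.05 per step (adjusted p = 6e-04). TIPARP, which encodes an enzyme that limits the receptor's activity, had 49.8, 59.3 and 79.6 CPM with Poria, against 50.7, 49.2 and 54.5 CPM with Atractylodis and 57.8 ± 2.45 CPM in vehicle (0.29 ± 0.05, adjusted p = 0.0021). AHRR, which encodes a repressor of the receptor, had 40.4, 47.6 and 56.1 CPM with Poria and 46.2, 40.9 and 45.7 CPM with Atractylodis (0.25 ± 0.06, adjusted p = 0.023).

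The cytochrome P450 genes of this list showed crossing orders. CYP1B1 had 133, 159 and 194 CPM with Poria, against 154, 146 and 164 CPM with Atractylodis and 115 ± 4.48 CPM in vehicle (0.23 ± 0.05 per step, adjusted p = 0.011). Poria was the lower extract at 20 µg/mL and the higher one at 100 and 500 µg/mL, and all 6 treated libraries were above the vehicle mean. CYP1A1, the classic target, was low, with 339 counts over the 6 libraries, and had 0.839, 1.43 and 2.09 CPM with Poria, against 1.37, 0.864 and 0.828 CPM with Atractylodis and 0.92 ± 0.147 CPM in vehicle (1.02 ± 0.23, adjusted p = 0.016). CYP1A2 had 3 counts over the 6 libraries and was not tested. The list's median change was 0.25 per step, 7 of 9 changes were above 0, and median log2 ratios were -0.03, 0.22 and 0.35 with rising dose. All 5 calls ended without the Atractylodis library at 20 µg/mL (TIPARP log2 0.19, adjusted p = 0.41) and without the Poria library at 500 µg/mL (0.2, adjusted p = 0.96). All but that of TIPARP also ended without Poria at 20 µg/mL, and that of CYP1A1 without Atractylodis at 500 µg/mL.

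**Figure D3:**
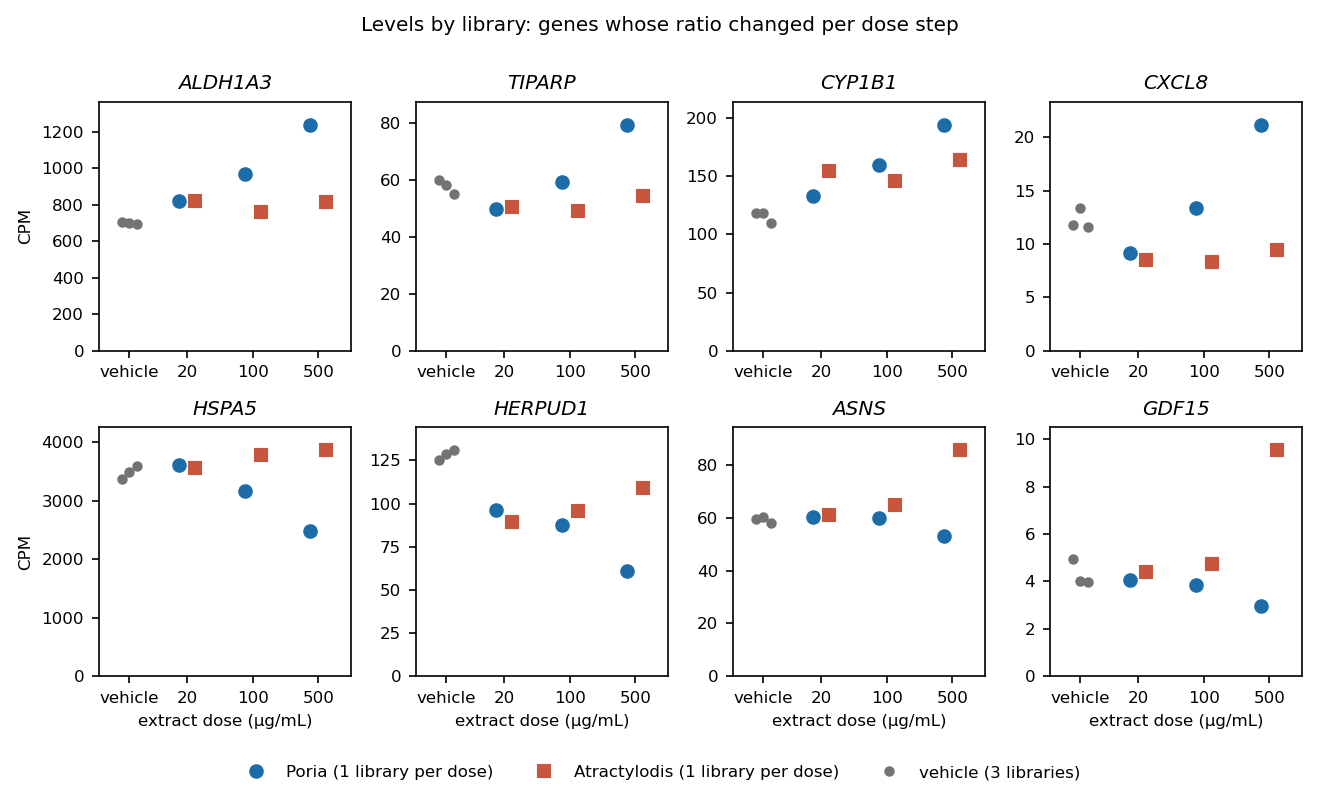
CPM in each library (linear axes) of 4 genes with a rising ratio (ALDH1A3, TIPARP, CYP1B1, CXCL8) and 4 with a falling ratio (HSPA5, HERPUD1, ASNS, GDF15), by dose for Poria (blue circles) and Atractylodis (red squares), 1 library each, with the 3 vehicle libraries in grey. The extracts lie close together at 20 µg/mL in most panels and farthest apart at 500 µg/mL, where ALDH1A3 had 1240 CPM with Poria and 817 CPM with Atractylodis.

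Among inflammatory cytokines and NF-kB targets the ratio rose in 3 of 22 genes tested and fell in 0. CXCL8 (ENSG00000169429, GRCh38 chr4:73740506-73743716, plus strand), the neutrophil chemokine interleukin 8, had 9.17, 13.4 and 21.2 CPM with Poria, against 8.5, 8.31 and 9.47 CPM with Atractylodis and 12.3 ± 0.994 CPM in vehicle (0.53 ± 0.09 per step, adjusted p = 0.00043). With Atractylodis it was below the vehicle mean at every dose, and with Poria it was above that mean at 100 and 500 µg/mL. PTGS2, the inducible cyclooxygenase, had 53.7, 68.8 and 83 CPM with Poria, against 51.8, 55.7 and 55.4 CPM with Atractylodis and 87.6 ± 2.04 CPM in vehicle (0.26 ± 0.05, adjusted p = 0.0035). The monocyte chemokine gene CCL2 had 22.9, 21.8 and 22.3 CPM with Poria, against 25.8, 20.4 and 17 CPM with Atractylodis and 37.9 ± 1.1 CPM in vehicle (0.28 ± 0.07, adjusted p = 0.021). Both of these genes were below the vehicle mean in all 6 treated libraries, and their gap opened in different ways: PTGS2 was higher at each higher dose of Poria, CCL2 lower at each higher dose of Atractylodis. LIF, a cytokine of the interleukin 6 family, had 31.1, 39.1 and 53.4 CPM with Poria and 33.2, 29.6 and 37.6 CPM with Atractylodis and did not pass (adjusted p = 0.13), and neither did IL6 (4.47, 5.14 and 6.19 CPM with Poria, 4.67, 4.23 and 5.38 CPM with Atractylodis, adjusted p = 0.75). The list's median change was 0.15 per step, with 15 of 22 above 0. CXCL8, PTGS2 and CCL2 all lost their call without Poria at 500 µg/mL, CXCL8 also without Atractylodis at 20 µg/mL (log2 0.42, adjusted p = 0.26), PTGS2 without Poria at 20 µg/mL (0.22, adjusted p = 0.43) or Atractylodis at 500 µg/mL, and CCL2 without any library of the lowest or the top dose.

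Few genes of lipid supply were called per step. INSIG1, which holds the sterol sensor in the endoplasmic reticulum, had 142, 135 and 144 CPM with Poria, against 152, 136 and 108 CPM with Atractylodis and 174 ± 1.16 CPM in vehicle (0.25 per step, adjusted p = 0.004). All treated libraries were below the vehicle mean, and Atractylodis at 500 µg/mL was the lowest. It was 1 of 2 genes called among 24 tested genes of cholesterol synthesis and uptake, whose median change was 0.06 per step with 16 above 0. The synthesis enzyme gene HMGCS1 had 61.2, 57.3 and 53.5 CPM with Poria and 57.4, 60.6 and 55.2 CPM with Atractylodis (-0.07 per step, adjusted p = 0.67). FASN, the fatty acid synthase, had 286, 270 and 284 CPM with Poria and 323, 282 and 248 CPM with Atractylodis (0.19, adjusted p = 0.038), 1 call among 11 genes of fatty acid synthesis. ABCA1, the cholesterol exporter, stood the other way, with 54.2, 50.3 and 48.2 CPM with Poria, against 54.1, 55 and 66.9 CPM with Atractylodis and 49.4 ± 1.05 CPM in vehicle (-0.24, adjusted p = 0.016), and was 1 of 10 liver X receptor targets called. In fatty acid oxidation 0 of 13 genes passed, though all 13 changes were below 0, with a median of -0.12 per step. INSIG1, FASN and ABCA1 lost their calls without either library of 500 µg/mL and without Poria at 20 µg/mL, and FASN also without Atractylodis at 20 µg/mL or Poria at 100 µg/mL.

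Surface, matrix and cytoskeletal genes with a rising ratio included F3, tissue factor, with 134, 134 and 171 CPM with Poria, against 126, 101 and 91.8 CPM with Atractylodis and 151 ± 1.6 CPM in vehicle (0.41 ± 0.06 per step, adjusted p = 0.0017). PLAU, the urokinase gene, had 107, 117 and 129 CPM with Poria, against 108, 98.6 and 94.4 CPM with Atractylodis and 137 ± 1.61 CPM in vehicle (0.23, adjusted p = 0.0065). Both genes were higher at the top dose than at the lowest dose of Poria, and lower at each higher dose of Atractylodis. KRT18, a keratin gene, had 198, 192 and 175 CPM with Poria, against 211, 162 and 114 CPM with Atractylodis and 223 ± 3.54 CPM in vehicle (0.35 ± 0.05, adjusted p = 1.4e-05). It was below the vehicle mean with both extracts and lowest with Atractylodis at 500 µg/mL. The collagen gene COL8A1 (0.2 per step, adjusted p = 0.026), the growth factor binding protein gene IGFBP5 (0.22, 0.017), the early response factor EGR1 (0.26, 0.02) and the cyclin gene CCNA2 (0.2, 0.048) also had rising ratios by the same test. F3 was 1 call among 16 TGF-beta and YAP targets, PLAU 1 among 15 genes of proteases and inhibitors, COL8A1 1 among 23 matrix genes and CCNA2 1 among 24 mitosis genes. KRT18 lost its call only without Poria at 20 µg/mL (log2 0.31, adjusted p = 0.13). COL8A1 and CCNA2 lost theirs without that library or without either of 500 µg/mL, PLAU, IGFBP5 and EGR1 without any of these 3 or Atractylodis at 20 µg/mL, and F3 without any Atractylodis library or Poria at 500 µg/mL.

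Falling ratios outside the stress programmes were found for FBXO32, a ubiquitin ligase gene under FOXO control, with 102, 98.3 and 82.4 CPM with Poria, against 92.7, 102 and 128 CPM with Atractylodis and 103 ± 4.04 CPM in vehicle (-0.39 ± 0.05 per step, adjusted p = 1.4e-05). JUND, a subunit of the AP-1 factor, had 39.1, 32 and 32.2 CPM with Poria and 31.7, 38.1 and 39.6 CPM with Atractylodis (-0.3, adjusted p = 0.0098), and SYT1, a synaptic vesicle protein, 39.3, 35.4 and 31.4 CPM with Poria and 36.7, 41.5 and 41.6 CPM with Atractylodis (-0.25, adjusted p = 0.017). For all 3 genes the order of the extracts at 20 µg/mL was the opposite of that at 500 µg/mL. All 3 calls ended without Atractylodis at 500 µg/mL, those of FBXO32 and SYT1 without Poria at 500 µg/mL, and those of JUND and SYT1 without either library of 20 µg/mL. MT-ATP8, a subunit of the mitochondrial ATP synthase, had 352, 261 and 223 CPM with Poria, against 183, 244 and 253 CPM with Atractylodis and 312 ± 53.1 CPM in vehicle (-0.56 ± 0.07, adjusted p = 0.0024). Its log2 ratios were 0.94, 0.1 and -0.18 with rising dose, and it kept its call whichever library was left out. Of the 13 mitochondrially encoded mRNAs, 13 had a ratio above 0 at 20 µg/mL, 12 a ratio below 0 at 100 µg/mL and 10 a ratio above 0 at 500 µg/mL, with medians of 0.39, -0.33 and 0.15, so MT-ATP8 stood on the other side of the list at the higher doses. MT-ATP8 (chrM:8366-8572) overlaps MT-ATP6 (chrM:8527-9207), whose log2 ratios were 0.41, -0.31 and 0.29 with rising dose. Reads can be divided between these genes, so the level of MT-ATP8 is uncertain. The part of read division, RNA quality or library composition in this was not tested.

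**Figure D4:**
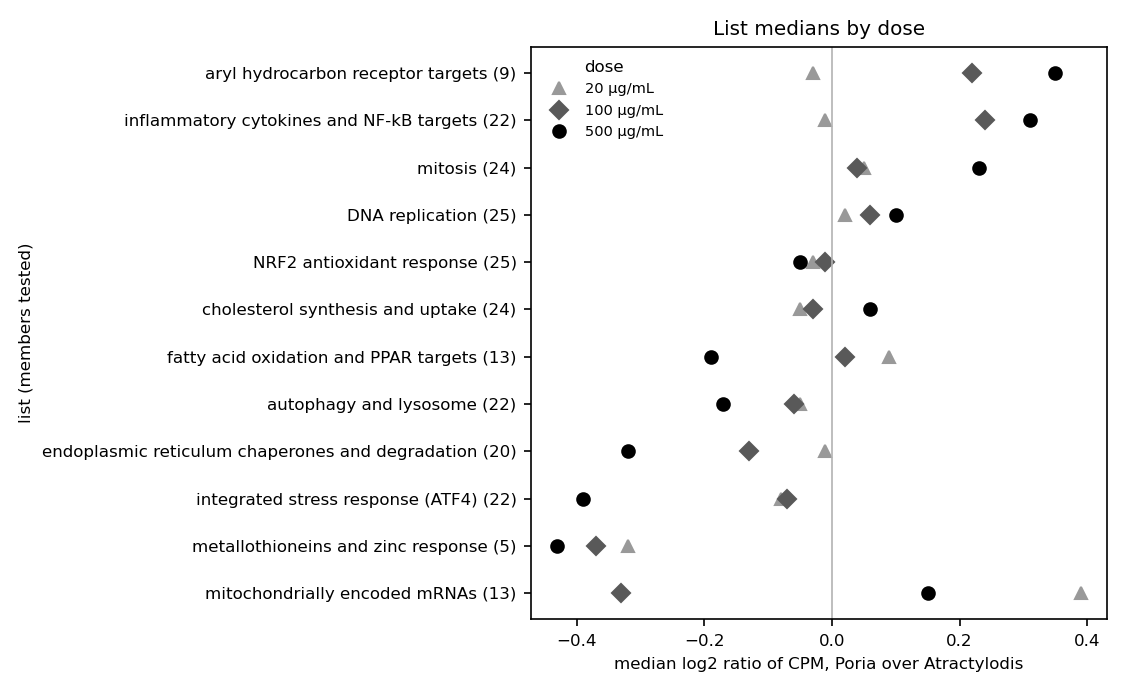
Median log2 ratio of CPM, Poria over Atractylodis, over the tested members of 12 gene lists (number tested in brackets), at 20 µg/mL (triangles), 100 µg/mL (diamonds) and 500 µg/mL (circles), 1 library of each extract per dose. Aryl hydrocarbon receptor targets reach 0.35 and ATF4 genes -0.39 at 500 µg/mL, metallothioneins are below 0 at every dose, and the mitochondrial mRNAs change side between doses.

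Among genes with a symbol whose log2 CPM averaged 2 or more, the largest rising ratios were mostly those of transcripts of uncertain identity. They were AC074212.1 (0.72 ± 0.12 per step, adjusted p = 0.00083), AC008522.1 (0.66, 0.0019), RAB43 (0.63, 0.0023), the readthrough gene BORCS8-MEF2B (0.62, 0.012) and ZNF436-AS1, an antisense gene (0.55, 0.023). After GDF15 and MT-ATP8, the largest falling ratios among the same genes were those of NPIPB3, a member of a duplicated family (-0.56, 0.021), AC099518.5 (-0.53, 0.033) and AC110597.3 (-0.5, 0.0021). Reads of such genes can be divided between copies or overlapping genes, and the strand setting of the counting is not given in the sources used here. CDRT4 and the readthrough gene TVP23C-CDRT4 show the point: they lie below the abundance set for naming and were picked after their values were seen. CDRT4 had 2.9, 5.64 and 7.29 CPM with Poria and 5.29, 3.27 and 1.45 CPM with Atractylodis, and TVP23C-CDRT4 had 5.01, 2.04 and 0.418 CPM with Poria and 2.71, 4.51 and 8.6 CPM with Atractylodis. Their sum was 7.91, 7.68 and 7.71 CPM with Poria, against 8, 7.78 and 10 CPM with Atractylodis, so the sum differed between the extracts less than either gene did.

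Other lists held few or no genes called between the extracts. Of 25 NRF2 antioxidant genes tested, 0 passed in either comparison, and their median was -0.02 over doses and -0.03 per step. The quinone reductase gene NQO1 had 150, 190 and 247 CPM with Poria, against 165, 173 and 237 CPM with Atractylodis and 130 ± 0.736 CPM in vehicle. SLC7A11, the cystine transporter gene, had 107, 131 and 184 CPM with Poria and 111, 134 and 207 CPM with Atractylodis (per step -0.06, adjusted p = 0.78). In both genes the levels were higher at each higher dose, and the ranges of the extracts overlapped almost fully. HMOX1, which breaks down heme, had 68.7, 73.6 and 105 CPM with Poria, against 77.1, 85.6 and 202 CPM with Atractylodis and 86.8 ± 0.893 CPM in vehicle. The extracts were farthest apart at 500 µg/mL (log2 ratio -0.94), and the change per step did not pass (-0.4, adjusted p = 0.77). All 24 mitosis genes had a mean ratio above 0 with a median of 0.12, and so did 24 of 25 DNA replication genes with a median of 0.07. Over all 17525 genes tested, 8712 mean ratios were above 0 and 8813 below. Members of a list are not independent of each other, so such counts are a description only. None of the mitosis and DNA replication genes passed in the mean over doses. The p of the highest ranked mitosis gene, the kinase BUB1 (68.5, 75.7 and 75.4 CPM with Poria, 66.2, 67.1 and 59.6 CPM with Atractylodis), was 0.29 after adjustment. Among 22 autophagy and lysosome genes, 19 had a mean ratio below 0 with a median of -0.08 and 0 passed.

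At a single dose each extract has 1 library, so the largest ratios are a description with no test. A ratio of at least 1.5-fold was counted over the 11609 genes whose log2 CPM averaged 2 or more. At 20 µg/mL 21 genes were higher (0.181%) and 13 lower (0.112%) with Poria, at 100 µg/mL 8 were higher (0.0689%) and 2 lower (0.0172%), and at 500 µg/mL 50 were higher (0.431%) and 47 lower (0.405%). TXNIP (ENSG00000265972, GRCh38 chr1:145992435-145996600, minus strand), which restrains glucose uptake, had 9.57, 16.3 and 217 CPM with Poria, against 10, 10.6 and 6.35 CPM with Atractylodis and 10.3 ± 0.72 CPM in vehicle. The Poria library at 500 µg/mL stood far above all others, with a log2 ratio of 5.08 over Atractylodis at that dose. ARRDC4 (ENSG00000140450, GRCh38 chr15:97960698-97973838, plus strand), a relative of TXNIP under the same glucose-sensing factors, had 5.44, 6.88 and 33.4 CPM with Poria and 5.29, 6.21 and 5.63 CPM with Atractylodis, a log2 ratio of 2.56 at the top dose. Neither passed for a change per step (TXNIP 2.82 ± 0.92, adjusted p = 0.51), and 0 of 12 glucose-sensing genes did. The log2 ratios of TXNIP at the lower doses were -0.07 and 0.62, and a rise mainly at the top dose counts partly as error in that straight-line test. On the lower side at 500 µg/mL stood GDF15 (log2 ratio -1.68) and NUPR1, a stress-induced chromatin protein gene, with 9.37, 9.48 and 6.17 CPM with Poria, against 12.1, 9.85 and 13.4 CPM with Atractylodis (-1.11).

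**Figure D5:**
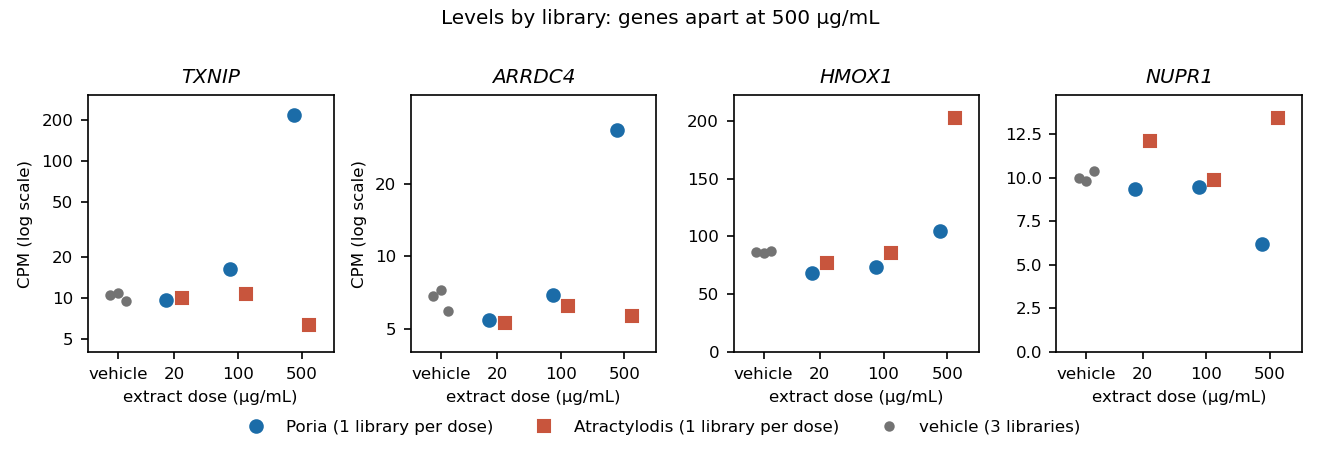
CPM in each library of TXNIP and ARRDC4 (log axes) and of HMOX1 and NUPR1 (linear axes), by dose for Poria (blue circles) and Atractylodis (red squares), 1 library each, with the 3 vehicle libraries in grey. At 500 µg/mL TXNIP had 217 CPM with Poria and 6.35 CPM with Atractylodis, and HMOX1 had 105 CPM with Poria and 202 CPM with Atractylodis.

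The other large single-dose ratios were mainly genes with copies. At 20 µg/mL EIF3CL, a copy of a translation factor subunit gene, had 36.7 CPM with Poria and 0 counts with Atractylodis, whereas at 100 µg/mL it had 21.3 CPM with Poria and 25.2 CPM with Atractylodis. MAGED4B was higher (log2 ratio 1.33) and its near-identical copy MAGED4 lower (-1.39) with Poria at 20 µg/mL, and their sum was 50.8 CPM with Poria and 58.8 CPM with Atractylodis. C4orf48 had 16 CPM with Poria at 20 µg/mL and 4.22 CPM with Atractylodis, where Atractylodis at 20 µg/mL was the lowest of all 9 libraries. At 100 µg/mL the highest ratios were those of RN7SL2 (29.5 CPM with Poria, 4.3 CPM with Atractylodis) and RN7SL1 (26.9 CPM with Poria, 4.37 CPM with Atractylodis), near-identical RNA genes of the signal recognition particle. The mitochondrial gene MT-ND1 was among the lowest ratios there, with 2550 CPM with Poria and 3760 CPM with Atractylodis.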

How the data were processed

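RNA was sequenced from SW1783 cells as paired reads of 100 bases from a directional library kit, per the labels' protocols. FastQC 0.11.9, Trim Galore 0.6.5, STAR 2.7.3a and RSEM 1.3.3 with the build hg38 are named in the submitters' processing notes, while neither the annotation release nor the strand setting of the counting is given in the sources used here. The table deposited by the authors holds expected counts from RSEM for 60675 genes in 279 columns, of which 270 columns were not used here. In the 9 columns used, 10.22% of values were not whole, and the expected counts were rounded to whole numbers. Symbols and positions came from GENCODE 29 and a table of gene names (57055 genes with a symbol). RSEM divides reads between similar transcripts by estimation, so genes with near-identical copies are uncertain.

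Tests used edgeR 4.0.16 in R 4.3.3 on the 6 treated libraries: filterByExpr (count minimum 10, total minimum 15; 17525 genes tested, 43150 not tested), TMM scaling, a robust quasi-likelihood fit and Benjamini-Hochberg adjustment at 0.05. The paired model had the dose as a factor and the extract, and the per-step model had the extract, the dose step and their product. Each left 2 residual degrees of freedom (biological coefficient of variation 5.31% and 3.84%). The spread shared over genes added a median of 16.7 and 35.1 prior degrees of freedom in the same order. The SE was taken as the size of the log2 value over the root of its F statistic. Printed CPM is scaled with TMM over all 9 libraries, and log2 ratios use a prior count of 2. The script was tested on simulated data.

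Named genes were, with log2 CPM averaging 2 or more: up to 15 genes each way past the threshold with the same sign in all 3 pairs, or the 10 with the smallest p where fewer than 10 passed; the 5 largest changes per step each way; the 5 largest ratios each way at each dose; up to 4 members of each list with the smallest p; and a fixed set of 23 genes. The text describes part of them, together with all 8 paired calls. The members, the rule and the 45 gene lists were chosen with earlier results of these data known. Alternatives covered scaling, filters, DESeq2 1.42.0, limma 3.58.1 (voom), robust estimation, GC content and length offsets (splines with 5 degrees of freedom), the dose term, the source of the spread and each library or pair left out. A result for 1 gene called per step is not reported here.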

Additional observations from a re-analysis of the deposited data

Results flagged for a closer look

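The results listed here are those whose difference between the extracts itself changed with dose in the edgeR quasi-likelihood test (Benjamini-Hochberg adjusted, 6 libraries), 157 genes in all. Values are changes of the log2 ratio of Poria over Atractylodis per 5-fold dose step.

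Targets of the aryl hydrocarbon receptor had 1.02 for CYP1A1, 0.3 for ALDH1A3, 0.29 for TIPARP, 0.25 for AHRR and 0.23 for CYP1B1. Inflammatory genes had 0.53 for CXCL8, 0.28 for CCL2 and 0.26 for PTGS2. Lipid genes had 0.25 for INSIG1, 0.19 for FASN and -0.24 for ABCA1. Genes of the cell surface, matrix, cytoskeleton and cell cycle had 0.41 for F3, 0.35 for KRT18, 0.23 for PLAU, 0.22 for IGFBP5, 0.2 for COL8A1 and 0.2 for CCNA2. The early response factor gene EGR1 had 0.26.

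On the falling side, genes of the endoplasmic reticulum had -0.47 for HERPUD1, -0.33 for HSPA5, -0.27 for CRELD2, -0.26 for DNAJB9 and -0.2 for PDIA3. Genes of the ATF4 programme had -0.81 for GDF15, -0.38 for DDIT3, -0.34 for ASNS, -0.33 for PSAT1 and -0.24 for DDIT4. FBXO32 had -0.39, JUND -0.3, SYT1 -0.25 and MT-ATP8 -0.56.

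Among genes outside the lists that have a symbol and a log2 CPM averaging 2 or more, the largest changes were 0.72 for AC074212.1, 0.66 for AC008522.1, 0.63 for RAB43, 0.62 for BORCS8-MEF2B and 0.55 for ZNF436-AS1, and -0.56 for NPIPB3, -0.53 for AC099518.5 and -0.5 for AC110597.3. Of all 157 changes, those of MT-ATP8, CDRT4, TVP23C-CDRT4 and RPS10-NUDT3 passed in each of the 6 fits that left out 1 library.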

How the results depend on the processing

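With 1 library per extract and dose and 2 residual degrees of freedom, counts of calls moved with the settings. None of the 66 gene values followed changed sign under any alternative run. These genes were picked by the same ratios in the same libraries, so a kept sign is no further test. The 8 paired calls became 305 with no filter on low counts, 5 with a minimum of 1 CPM, 5 in DESeq2, 2 without robust estimation, 3 with GC content and length offsets, 3 without the dose block and 1467 with the spread taken from the vehicle libraries; leaving out 1 pair gave 7 to 266 (266 without the pair at 20 µg/mL, 7 without that at 100 µg/mL, 54 without that at 500 µg/mL). Other scalings gave 6 or 7, limma-voom 8 and a straight line for dose 10. The 157 calls per step became 338 with no filter, 50 in DESeq2, 47 without robust estimation, 388 with dose as a factor and 85 with dose itself in place of the step; leaving out 1 library gave 82 to 306, and 115 without Atractylodis at 20 µg/mL.

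Of list members, 2 paired calls became 45 with no filter, 1 in DESeq2, 0 without robust estimation, 0 with GC content and length offsets, 0 without the dose block and 169 with the vehicle spread, and 0 to 53 when 1 pair was left out. The 33 members called per step became 66 with no filter, 17 without robust estimation and 68 with dose as a factor, and 11 to 62 when 1 library was left out. Ratios of at least 1.5-fold at a single dose became 21 at 20 µg/mL (34 before) and 64 at 500 µg/mL (97 before) when log2 CPM had to average 3 or more. The alternatives for single doses and for list members per step were chosen after seeing the data, and the cause of these shifts was not tested. No paired analysis by replicate number was possible because all treated libraries share 1 number; the pairs and the block used here are those of dose.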

Other observations

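Among genes outside the lists, the following were picked after their values were seen, with no list and no test of a group, and unless stated otherwise had a change of the log2 ratio of Poria over Atractylodis per dose step past the threshold of the edgeR quasi-likelihood test (Benjamini-Hochberg adjusted). CEMIP and HAS3, which act on hyaluronan, a sugar polymer of the matrix, and UAP1, which supplies a precursor, had rising ratios. The synthase gene HAS2 was not called (0.08 per step, adjusted p = 0.62). CEMIP, which takes part in hyaluronan breakdown, had 47.1, 51.2 and 62.4 CPM with Poria at 20, 100 and 500 µg/mL, against 42.6, 40.1 and 30.3 CPM with Atractylodis and 51.4 ± 3.1 CPM in vehicle (SD, n = 3; change 0.45 ± 0.06, adjusted p = 3.3e-05). The hyaluronan synthase gene HAS3 had 43, 46.3 and 51.6 CPM with Poria, against 42.1, 40.1 and 35.9 CPM with Atractylodis (0.25, adjusted p = 0.013). UAP1, which makes a precursor of hyaluronan that also serves other sugar chains, had 130, 136 and 156 CPM with Poria, against 122, 122 and 113 CPM with Atractylodis (0.19, adjusted p = 0.041). In all 3 genes every Poria library was above every Atractylodis library, an order found in 6.49% of genes tested. CEMIP lost its call without Atractylodis at 500 µg/mL only (adjusted p = 0.11), whereas HAS3 and UAP1 lost theirs without either library of 20 µg/mL or of 500 µg/mL, and UAP1 also without Poria at 100 µg/mL.

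Among genes that bring amino acids into the cell or load them onto tRNA, SLC38A1, SLC3A2, AARS1 and IARS1 had falling ratios, and the transporter genes SLC7A5 (-0.02, adjusted p = 0.94) and SLC7A11 (-0.06, adjusted p = 0.78) were not called. SLC38A1, a glutamine transporter gene, had 125, 118 and 111 CPM with Poria, against 118, 130 and 155 CPM with Atractylodis and 124 ± 4.19 CPM in vehicle (-0.28, adjusted p = 0.00064). SLC3A2, the heavy chain of amino acid exchangers, had 135, 129 and 122 CPM with Poria, against 139, 143 and 175 CPM with Atractylodis (-0.24, adjusted p = 0.0065). The tRNA synthetase genes AARS1 (188, 174 and 160 CPM with Poria, 186, 192 and 216 CPM with Atractylodis; -0.22, adjusted p = 0.0079) and IARS1 (386, 380 and 353 CPM with Poria, 363, 402 and 430 CPM with Atractylodis; -0.19, adjusted p = 0.037) had the same order at the top dose. The calls of these 4 genes ended without either library of 500 µg/mL and without Poria at 20 µg/mL, and that of IARS1 also without Atractylodis at 20 µg/mL or Poria at 100 µg/mL. FLCN, FNIP1 and RRAGC, which act in nutrient sensing at the lysosome, also had falling ratios, while 0 of the 22 genes of the autophagy and lysosome list were called per step. FLCN had 39.1, 32.1 and 29.3 CPM with Poria and 39.7, 38.6 and 43.9 CPM with Atractylodis (-0.28, adjusted p = 0.0077). Its partner gene FNIP1 had 56.7, 54.5 and 47.2 CPM with Poria and 58, 58.7 and 69.6 CPM with Atractylodis (-0.26, adjusted p = 0.0065). The GTPase gene RRAGC had 59.1, 59.8 and 53.5 CPM with Poria and 59.4, 62.3 and 75.5 CPM with Atractylodis (-0.25, adjusted p = 0.012). For all 3 lysosomal genes the highest treated library was Atractylodis at 500 µg/mL, and their calls ended without it, without Poria at 500 µg/mL and without Poria at 20 µg/mL.

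ALDH1A3-AS1, antisense to ALDH1A3, had 46.9, 51.7 and 71.1 CPM with Poria, against 43.3, 40.7 and 42.9 CPM with Atractylodis (0.31, adjusted p = 0.0042). Its reads may be shared with ALDH1A3, since the strand setting of the counting is not given in the sources used here.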
